A study of Mus musculus with 12 samples.

Results

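Kinesins are motor proteins that use ATP to walk along microtubules or to take their ends apart. Gene rows were chosen by symbol, Kif followed by a digit or a c, which matched 47 of the 56691 genes in the count table. Of these, 42 are kinesin genes. The other 5 rows are Kif1bp, which encodes a protein that binds kinesins and is no motor, the pseudogenes Kif4-ps, Kif22-ps and Kifc5c-ps, and the antisense RNA Kif16bos. The kinesin genes were split by textbook role into 15 spindle kinesins, 17 transport kinesins and 10 others.

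Libraries were made from pools of C57BL/6 mouse oocytes of wild type (WT) and of Alkbh5 knockout (KO, Alkbh5-/-) females, in which CRISPR-Cas9 had removed exon 1 of Alkbh5, the gene of an RNA demethylase acting on N6-methyladenosine. The knockout is present in every cell of the animal, follicle cells included. Oocytes of PMSG-primed 3-week-old females were stripped of follicle cells and cultured in M16 medium for 0 h (germinal vesicle stage, GV), 4 h (germinal vesicle breakdown, GVBD) or 16 h (metaphase II, MII). Each of the 6 groups had 2 libraries, 12 in all. Stage names of the KO pools are those of the labels, and whether each oocyte of a pool had reached the named stage was not tested. The paper reports that in culture most Alkbh5-/- oocytes stayed at GV and few extruded the first polar body. KO and WT pools with the same label may therefore differ in stage. Because pools were sequenced, fewer oocytes of a kind and less RNA per oocyte cannot be told apart.

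An oocyte builds its meiotic spindle without centrosomes, and kinesins supply much of the force: some slide antiparallel microtubules apart, some shorten microtubule ends at kinetochores, some push chromosome arms, and others organise the central spindle for polar body extrusion. Transport kinesins carry vesicles, mitochondria, endosomes and RNA, and several work in cilia, which oocytes lack. Transcription ceases once an oocyte is fully grown, so the mRNA of these motors is stored and is translated, kept or degraded during maturation. The paper reports that Alkbh5-/- GV oocytes were smaller and more often had a nucleolus not surrounded by chromatin. It takes these as signs of impaired growth. Whether transcription had ceased in every oocyte of the KO GV pools was not tested.

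Libraries held 28557742 to 40247810 counts, of which the ERCC spike-in RNA took 0.777% to 2.08%. Unless another scale is named, values are counts scaled so that each library has the same spike-in total. Alkbh5 had 5355 to 10181 counts in the WT libraries and 54 to 143 in the KO libraries, and its log2 change was -5.41 (SE 0.52) at GV, -6.43 (SE 0.70) at GVBD and -5.89 (SE 0.99) at MII. All 12 oocyte markers were detected above 3 counts in every library, with a summed level of 13700 to 28200 CPM (counts per library scaled to a common total). The granulosa list summed to 29.2 to 76.6 CPM, and 4 of its 12 genes passed 3 counts in every library. Cyp19a1 had the most, 577 to 2225 counts, and Amhr2 had 0 in every library. Neuronal markers summed to 21.2 to 48.1, with Rbfox3 at 0. Of these 10 genes 1 passed 3 counts in every library, Tubb3, with 368 to 1417 counts. Blood markers ran from 0.843 to 3330 CPM and liver markers from 0 to 649. Alb had 0 counts in WT MII replicate 2 and 14458 in WT GVBD replicate 1. Proliferation genes summed to 334 to 610. Heart markers ran from 79.1 to 969, with all 4 MII libraries (79.1 to 272) below the GV and GVBD libraries (406 to 969). This order followed Tnni3, with 2036 to 34485 counts. Myh6, Tnnt2, Ankrd1, Actc1 and Nppa went another way and were highest in WT MII replicate 1. Myh6 had 2785 counts there, 2 in WT GV replicate 1, and 13 and 2 in KO MII. The part of these marker genes in the results below was not tested.

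Spindle kinesin mRNA made up most of the kinesin mRNA of the oocyte. Per length, in TPM (counts per base of exon, scaled to a common total), the spindle class took 73.3% and 76.2% of the summed kinesin level in the WT GV libraries, and the transport class 23.8% and 20.2%. The spindle share was 73.3% and 71.8% in KO GV. In MII it was 82.1% and 82.4% in WT and 81% and 83.1% in KO, above both GV libraries of the same genotype. With 2 libraries against 2 no exact test can reach significance, so these shares are given as values. Kif17 alone held 54.3% and 38.1% of the transport level in WT GV, and 18.5% and 17.3% in WT MII. Without Kif17 the transport share was 12.5% and 13.5% in WT GV and 13.3% and 13.2% in WT MII, so the groups overlapped. In KO it was 14% and 13.5% in GV and 13.1% and 11.3% in MII, without overlap. The spindle share without Kif17 was 84.2% and 82.6% in WT GV and 84.6% and 84.7% in WT MII. For KO it was 81.9% and 81.5% in GV against 84.7% and 85.7% in MII. It was thus still higher in both MII libraries than in either GV library of each genotype. At GVBD it was 82.9% and 84.7% in WT, overlapping WT MII, and 81.2% and 82.8% in KO.

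Kif2c, a depolymerase that removes tubulin at kinetochores, was the highest kinesin in WT GV, at a mean of 100.3 TPM. Kif20b, a motor of cytokinesis, followed at 77.8 TPM. The libraries of these 2 genes did not overlap. Kif17, a kinesin-2 motor best known from cilia and dendrites, came next at 51 TPM and the highest of the transport class. The chromokinesins Kif4 at 47.9 TPM and Kif22 at 45.5 TPM followed, and the libraries of Kif17, Kif4 and Kif22 overlapped one another. Kif23, the motor of the centralspindlin complex with Racgap1, stood at 28.2 TPM, and Kif18a, which damps chromosome movements at the metaphase plate, at 24.3 TPM, with overlapping libraries. Kif20a, which brings the chromosomal passenger complex to the midzone, had 16.1 TPM, between the conventional heavy chain Kif5c at 15.7 TPM and Kif18a. Kif11, the plus-end motor that separates spindle poles in mitosis, had 3.93 TPM, and its mitotic helper Kif15 0.817 TPM. The minus-end motor Kifc1 had 1.23 TPM, but shares 17% of its 100-base windows with Kifc5b, so reads of these 2 genes may have been split between them.

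**Figure D1:**
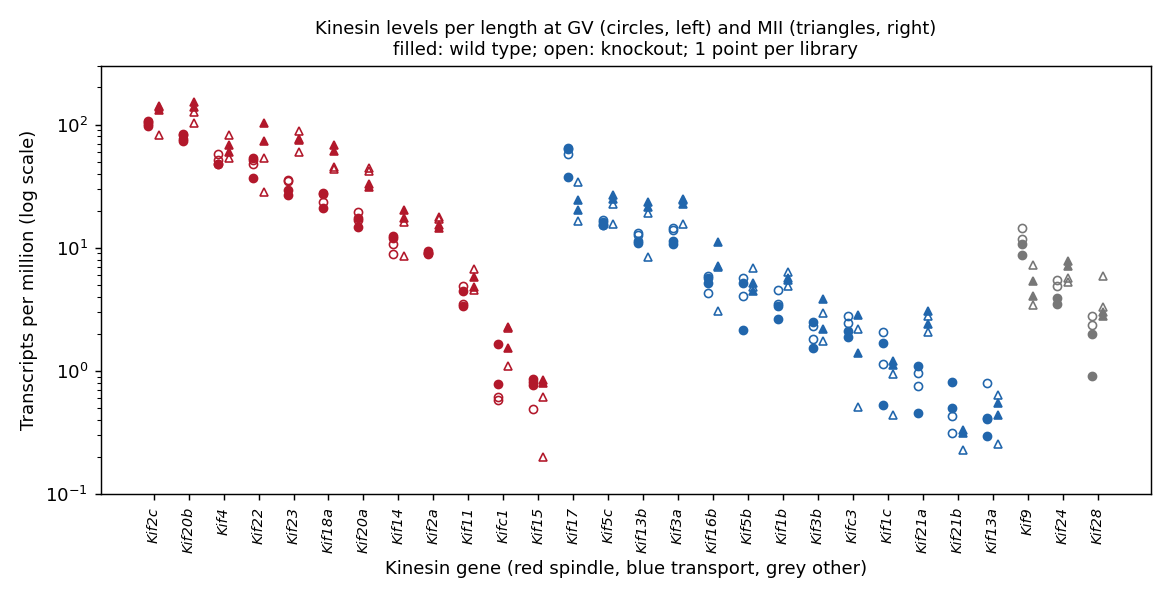
Level per length of the 28 kinesin genes averaging 50 counts or more, in TPM on a log axis, with 1 point for each library at GV (circles) and MII (triangles), filled for wild type and open for knockout. Kif2c and Kif20b lead the spindle class (red), Kif17 leads the transport class (blue) at GV, and Kif17 and Kif9 lie lower at MII in both genotypes on this scale.

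Among the transport kinesins, Kif13b had 11.1 TPM in WT GV and Kif3a, the kinesin-2 subunit that pairs with Kif3b, 11.1 TPM. Kif16b, a motor of early endosomes, had 5.46 TPM, and Kif5b, the conventional heavy chain found in most tissues, 3.67 TPM. Kif1b, a carrier of vesicles and mitochondria, had 3.02 TPM. The neuronal motors Kif1a and Kif5a had at most 44 and 80 counts in any library. In all, 18 of the 47 rows had a mean under 50 counts. They were the spindle genes Kif18b (4 to 97 counts), Kifc5b (1 to 29) and Kif2b (0 to 4), the transport genes Kif1a, Kif5a, Kif3c (2 to 44) and Kifc2 (0 to 10), the others Kif26a (0 to 92), Kif27 (8 to 69), Kif26b (6 to 48), Kif6 (0 to 13), Kif19a (0 to 16), Kif7 (0 to 8) and Kif12 (0 in all 12 libraries), and the 3 pseudogenes and Kif16bos, with at most 53 counts.

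Stored oocyte mRNAs are often translated on maturation through a cytoplasmic polyadenylation element (CPE), a U-rich motif in the 3′ UTR close to the polyadenylation signal. The last 100 bases of the 3′ UTR (GENCODE M21, GRCm38, 1 protein-coding transcript a gene, the APPRIS principal where given) were searched on the transcript strand for the CPE letters TTTTAT or TTTTAAT and for the polyadenylation signal AATAAA or ATTAAA. Among all 19920 protein-coding genes with such a window, 17.8% held a CPE and 14.3% held both motifs. Among the 10304 of them averaging 50 counts or more, 20.1% held a CPE and 17% held both. Among spindle kinesins 5 of 14 (35.7%) held both: Kif20b, Kif18a, Kif11, Kifc1 and Kifc5b. With the minimum of 50 counts, which leaves out Kifc5b, it was 4 of 11. None of 17 transport kinesins held a CPE, and 14 of them held a polyadenylation signal. Of the others Kif9, Kif26a, Kif26b and Kif27 held a CPE. Stretches of 3 spindle kinesins that hold both motifs, and of Kif9 and Kif17, the most abundant kinesins called between GV and MII in WT (below), are shown from 5′ to 3′ with CPE and polyadenylation signal in capitals. In Kif11 the CPE TTTTAAT follows the signal ATTAAA. All lie on the plus strand, at chr19:34975701-34975730, chr2:109341707-109341736, chr19:37421833-37421859, chr9:110525149-110525178 and chr4:138301939-138301967 in this order.
Kif20b: tatataaTTTTAATtcAATAAAtatatcag
Kif18a: aataTTTTATtacttggtatATTAAAgatg
Kif11: tttttaaATTAAAttaTTTTAATtttt
Kif9: gataaaattactTTTTATttcctgtctgaa
Kif17: agaaagctgcccAATAAActgccttttgg
In this window Kif9 carries a CPE and no polyadenylation signal, and Kif17 a signal and no CPE. These are matches of letters, given as a description.

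The transition from GV to MII in WT oocytes, the period in which maternal mRNA is cleared, changed 7 of the 39 rows tested, all downward. A call needed an adjusted p under 0.05 and at least a 2-fold change. Over all genes tested 30.9% were called in either direction and 30.5% lower, and the median gene changed by -1.06 on the log2 scale. The called rows were Kif17, Kif9, Kif21b, Kif1bp, Kif3c, Kif18b and Kif26a. The last 3 of these had a mean under 50 counts. Per the paper, polyadenylated mRNA was reverse transcribed. It also reports that poly(A) tails of assayed transcripts shortened during maturation in WT, and less so in KO. Whether tail length moved the counts between stages or genotypes was not tested.

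Kif17 lies on the plus strand of chromosome 4 (GRCm38, chr4:138250435-138301967). Its scaled counts were 6757.1 and 3670.7 in GV oocytes of WT, 4082 and 3778.6 after 4 h (GVBD), and 1458 and 802.4 after 16 h (MII). It was lower in both MII libraries than in any GV or GVBD library, with a log2 change from GV to MII of -2.21 (SE 0.50, adjusted p = 7.69e-05). In KO the GV values were 7002.2 and 6755.1, the GVBD values 10334.7 and 6584.4, and the MII values 2628.1 and 840.9, a log2 difference between MII and GV of -1.99 (SE 0.67, adjusted p = 0.109).

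Kif9, a kinesin of motile cilia and the sperm tail (plus strand, chr9:110476958-110525179), had 851.9 and 999.8 scaled counts in WT GV, 1040.6 and 944 in GVBD, and 305.5 and 150.4 in MII. The GV and MII libraries did not overlap, and the log2 change was -2.02 (SE 0.54, adjusted p = 0.00112). In KO, Kif9 had 1352.7 and 1470.9 before culture, 2270.8 and 1134.7 after 4 h, and 520.4 and 161.9 after 16 h, with a log2 difference of -2.05 (SE 0.76, adjusted p = 0.136).

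Kif21b, a transport kinesin that also slows microtubule growth (plus strand, chr1:136131389-136177998), had 140 and 211.5 scaled counts in WT GV, 183.7 and 109.8 in GVBD, and 53.4 and 33.3 in MII. Its log2 change was -2.02 (SE 0.72, adjusted p = 0.0184). Its KO libraries had 138.4 and 89.3 before culture, 121.7 and 57.3 after 4 h, and 47 and 0 after 16 h.

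Kif1bp encodes a protein that holds several kinesins off the microtubule (minus strand, chr10:62538626-62578457). It had 285.9 and 356.8 scaled counts in WT GV, 364.8 and 239.1 in GVBD, and 90.9 and 65.1 in MII, a log2 change of -2.04 (SE 0.62, adjusted p = 0.00467). Its KO values were 546.2 and 481 before culture, 488.4 and 757.9 after 4 h, and 215.2 and 78.1 after 16 h. An antisense gene, 4933428P19Rik, covers 10.1% of its exon bases, and whether counting used strand is not given in the sources used here.

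The other 3 called rows rested on few reads, so their folds are loose. Kif18b, a plus-end motor of astral microtubules, had 59.3 and 94.5 scaled counts in WT GV against 19.9 and 9.2 in MII (log2 -2.41, SE 0.96, adjusted p = 0.0404). Kif3c had 36.8 and 36.7 against 6.4 and 1 (log2 -3.34, SE 1.31, adjusted p = 0.0367), and 35.3% of its exon bases overlap the antisense gene 1110002L01Rik. Kif26a had 19 and 129.7 against 19.9 and 0, so its libraries overlapped, and without WT GV replicate 2 its log2 difference was -0.95 (adjusted p = 0.901).

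With 1 WT library left out, Kif21b, Kif3c and Kif18b were never called, and each of the other 4 was lost under at least 2 of the 4 omissions. Without WT GV replicate 2 none was called, without WT GV replicate 1 only Kif26a, without WT MII replicate 2 only Kif9, and and without WT MII replicate 1 there were 5, of which Kif9, Kif17 and Kif1bp were among the 7. The log2 differences stayed negative throughout: Kif9 ranged from -2.62 to -1.60, Kif17 from -2.70 to -1.70, Kif1bp from -2.30 to -1.82 and Kif21b from -2.40 to -1.69. DESeq2 called 4 rows (Kif9, Kif17, Kif21b and Kif1bp) among 5520 genes, and 3 (Kif9, Kif17 and Kif1bp) were called with all 12 libraries in the model.

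**Figure D2:**
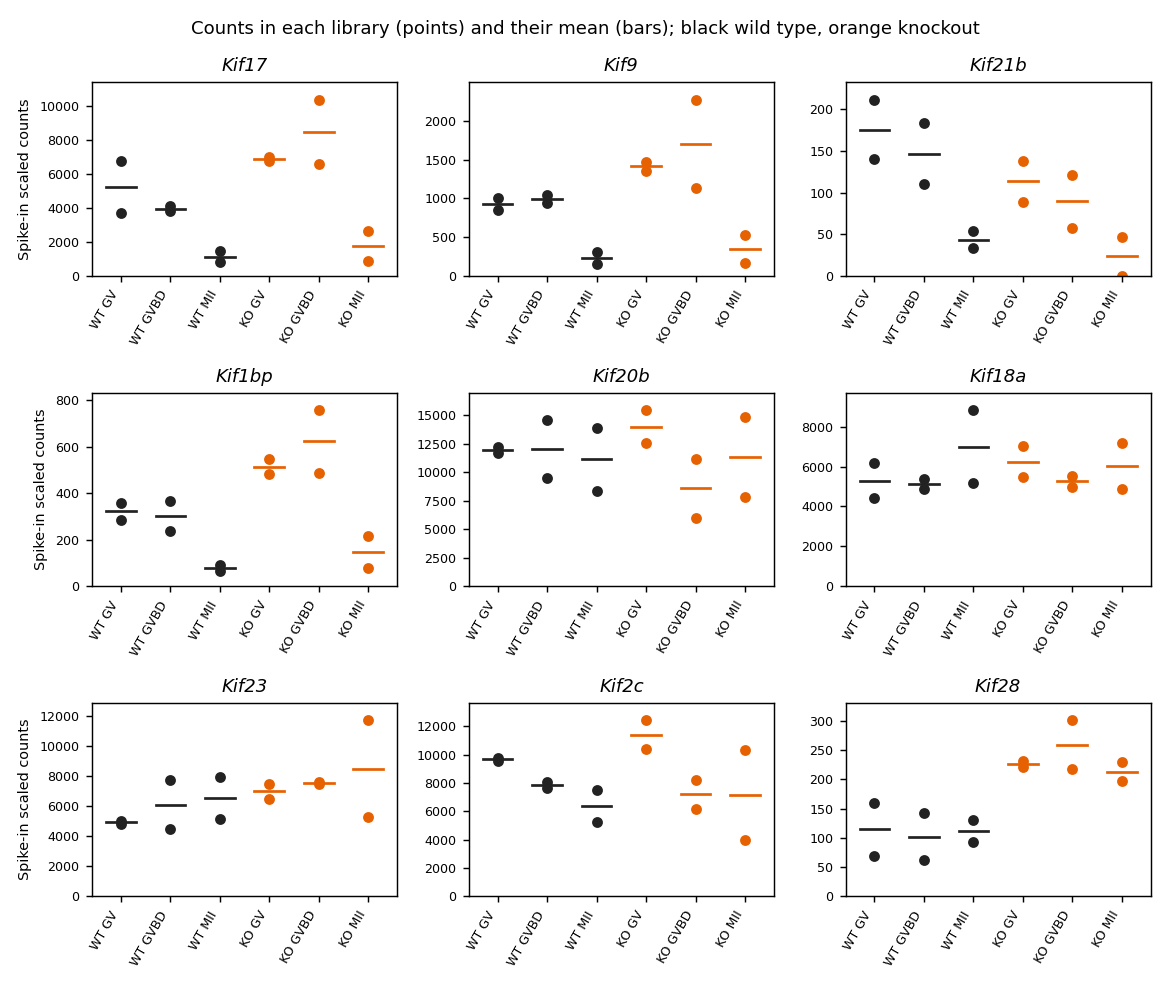
Spike-in scaled counts of 9 genes in each library (points) with the mean of each group (bars), wild type in black and knockout in orange. Kif17, Kif9, Kif21b and Kif1bp are lowest at MII in both genotypes, the GV and MII values of Kif20b and Kif18a overlap in wild type, and Kif28 lies higher in the knockout libraries at each stage.

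Most spindle kinesins lay above the median gene in this transition. Of the 12 spindle kinesins averaging 50 counts or more, 11 had a log2 change above the median of the 13200 genes tested with the same minimum, which was -0.91. The class median was -0.32, with a range of -0.998 to 0.41. None of these 12 was called. Kif23 had 4829 and 5018.9 scaled counts in WT GV, 7733.5 and 4455.1 in GVBD, and 7897 and 5143.6 in MII (log2 0.41, SE 0.47). Kif18a had 6178.1 and 4422.4, then 5401.5 and 4903.2, then 8842.2 and 5178.3 (log2 0.40, SE 0.47). The GV and MII libraries of Kif18a overlapped, and the lower MII library of Kif23 lay just above GV.

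Kif20b had 11728.5 and 12193.9 scaled counts in WT GV, 14561.9 and 9457.5 in GVBD, and 13906.9 and 8387.5 in MII (log2 -0.10, SE 0.46). Kif22 had 6008.4 and 3916.1, then 3529.5 and 4850.1, then 6626.4 and 3141.2 (log2 -0.02, SE 0.47). These 2 genes overlapped between GV and MII. Kif2c had 9576.2 and 9759.9, then 8039.3 and 7664.3, then 7507 and 5227 (log2 -0.60, SE 0.47, adjusted p = 0.363). Kif4 had 6009.6 and 5687.3, then 8153.3 and 4512.7, then 4898.8 and 2878.6 (log2 -0.59, SE 0.47, adjusted p = 0.386). Both MII libraries of Kif2c and of Kif4 lay below GV without passing the test. The remaining spindle members ran from Kif15, a helper of Kif11 (log2 -0.998, SE 0.64), Kif11 (-0.57, SE 0.53), Kif14 (-0.38, SE 0.48), Kifc1 (-0.32, SE 0.75) and Kif2a (-0.32, SE 0.50) to Kif20a (-0.01, SE 0.49).

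The transport class had a median of -0.38 and a wider range, -2.21 to 0.84, and 10 of its 13 members with the same minimum lay above -0.91. Kif5c had 2606.7 and 2370.5 scaled counts in WT GV, 2672.6 and 1631.1 in GVBD, and 2532.4 and 1544.1 in MII (log2 -0.29, SE 0.48). Kif13b had 3343.5 and 3050.2, then 3237.2 and 1753.4, then 4041.4 and 2395.2 (log2 0.01, SE 0.48). Kif3a had 878 and 875.7, then 1094.3 and 774, then 1072 and 754.7 (log2 0.06, SE 0.50). The MII values of Kif13b and Kif3a spanned those of GV, and those of Kif5c overlapped them. Kif16b had 1070.2 and 1115.5, then 1166.7 and 1075.9, then 1316.8 and 555.2 (log2 -0.22, SE 0.50), and Kif5b had 388 and 894.1, then 682.6 and 338.3, then 470.6 and 357.1 (log2 -0.63, SE 0.53). Kif21a, the paralogue of Kif21b, had the highest log2 difference of the class, 0.84 (SE 0.63, adjusted p = 0.346). Kif1b had -0.13 (SE 0.50), Kif3b -0.38 (SE 0.58), Kif13a -0.48 (SE 0.86), Kifc3 -0.85 (SE 0.61) and Kif1c -0.96 (SE 0.65).

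The medians of the spindle and the transport class differed by 0.06 on the log2 scale (SD 0.10 between libraries) in the WT transition, less than their spread, and this difference ranged from -0.12 to 0.21 when single libraries were left out. Here and below this SD was taken from class differences within single libraries relative to WT GV, a measure unlike the difference of fitted medians. Among the others, Kif24, a centriolar kinesin that restrains cilium formation, had 643.1 and 668.4 scaled counts in WT GV, 675.9 and 391.4 in GVBD, and 824.7 and 492.5 in MII (log2 0.01, SE 0.51), and its GV values lay between those of MII. Kif27 had 30.8 and 56.4, then 32.2 and 16.8, then 47.9 and 33.3 (log2 -0.10, SE 0.93), also overlapping. Kif28 had a log2 difference of -0.05 (SE 0.68).

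**Figure D3:**
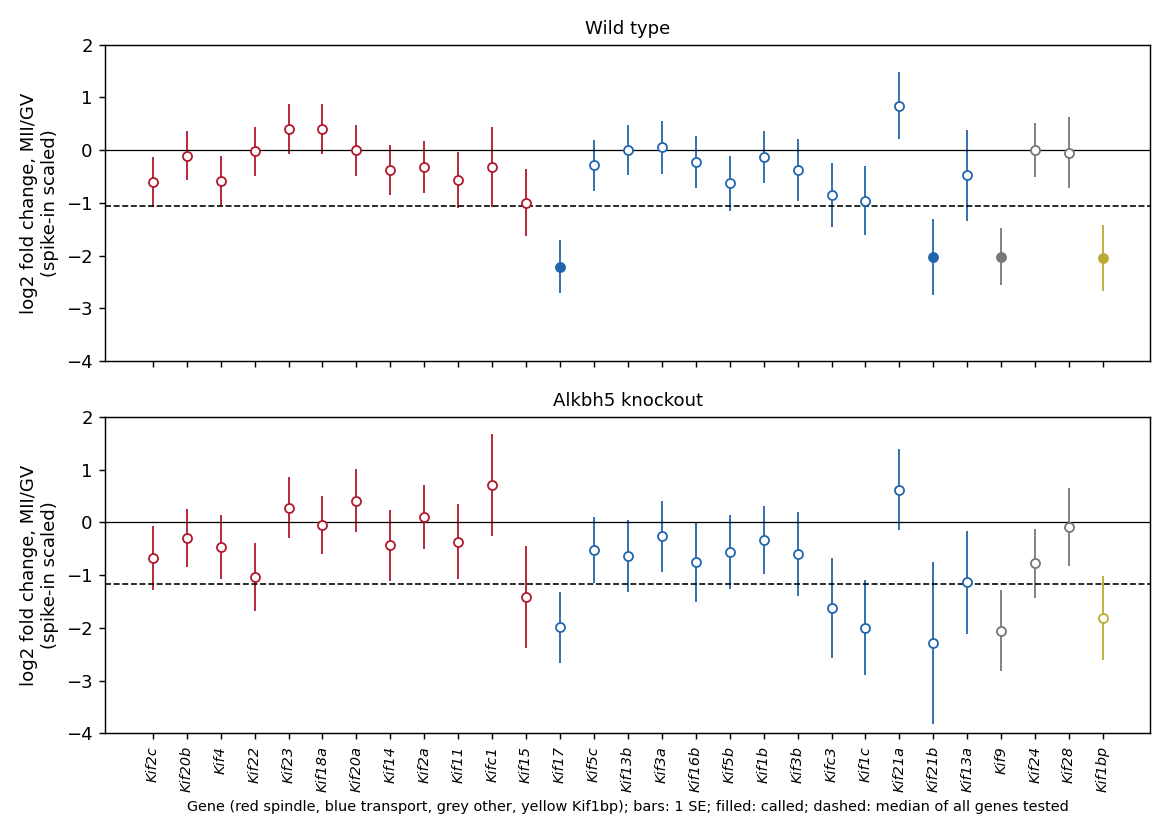
Log2 fold change from GV to MII of each kinesin averaging 50 counts or more and of Kif1bp, in wild type (upper) and knockout (lower), with 1 SE; filled points were called and the dashed line is the median of all genes tested, -1.06 in wild type and -1.17 in knockout. Kif17, Kif21b, Kif9 and Kif1bp lie near -2 in both genotypes and are called in wild type, and the spindle kinesins in red lie mostly between the dashed line and 0.

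The scale decides the sign for many members. With TMM scaling, which sets aside how much mRNA an oocyte holds and compares each gene with the other genes, the median gene changed by -0.14 in WT, and 6 of the 39 rows were called where 24.7% of all genes were. Of these 6, Kif17 (log2 -1.34, SE 0.36, adjusted p = 0.0379), Kif9 (-1.14, SE 0.24, adjusted p = 0.0183) and Kif1bp (-1.10, SE 0.31, adjusted p = 0.0456) were lower. Kif23 (log2 1.33, SE 0.17, adjusted p = 0.00512), Kif18a (1.29, SE 0.26, adjusted p = 0.0161) and Kif21a (1.76, SE 0.43, adjusted p = 0.0297) were higher on that scale, where 8.47% of all genes were called higher. Kif23 rose in this relative sense from 26.9 and 29.6 TPM in WT GV to 76.1 and 75.3 TPM in WT MII, and Kif18a from 27.6 and 20.9 to 68.4 and 60.9 TPM. Median-of-ratios scaling, which is also relative to the other genes, called Kif17 and Kif9 lower and Kif18a, Kif23, Kif21a and Kif3a higher, and did not call Kif1bp. These median-of-ratios calls are given without the share of all genes and were not read as a result about kinesins. No kinesin was called higher with spike-in scaling.

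In KO oocytes no kinesin row of 38 passed the test between GV and MII by edgeR's quasi-likelihood test, where 3.28% of all genes were called. At an unadjusted p under 0.05 there were 6 rows, against 4626 of 18777 genes. DESeq2 called 2 rows, Kif9 and Kif17, among 3068 genes. The KO MII libraries stood apart from each other. Relative to the WT GV mean, the median spindle kinesin lay at log2 0.40 in replicate 1 and -0.81 in replicate 2. The WT MII libraries also lay apart, at 0.10 and -0.77. KO MII replicate 2 had 19837 genes detected against 21938 to 24436 in the WT libraries. The median of all genes lay at -0.21 in KO MII replicate 1 and -1.40 in replicate 2. Calls rose most without KO MII replicate 1, which leaves replicate 2, the library low over all genes. With 1 library left in the group, these calls were not read as a result about kinesins. With TMM scaling, where 5.06% of all genes were called and 1.19% were called higher, Kif23 (log2 1.31, SE 0.24, adjusted p = 0.047) and Kif20a (1.54, SE 0.26, adjusted p = 0.044) were higher. The spindle class had a median of -0.33 and the transport class of -0.64, a difference of 0.31, which was 0.86 without KO MII replicate 1. Within single libraries the class difference was -0.136 and -0.297 in KO GV and 0.202 and 0.59 in KO MII (SD 0.30). The difference between genotypes in the GV to MII change was called for none of 40 rows, and 0% of all genes were called by edgeR. No row had an unadjusted p under 0.05, where 1197 of 20807 genes did, and DESeq2 called none. For Kif17 this difference of changes was 0.22 with a 95% interval of -1.58 to 2.02, and for Kif22 it was -1.01 with an SE of 0.80.

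**Figure D4:**
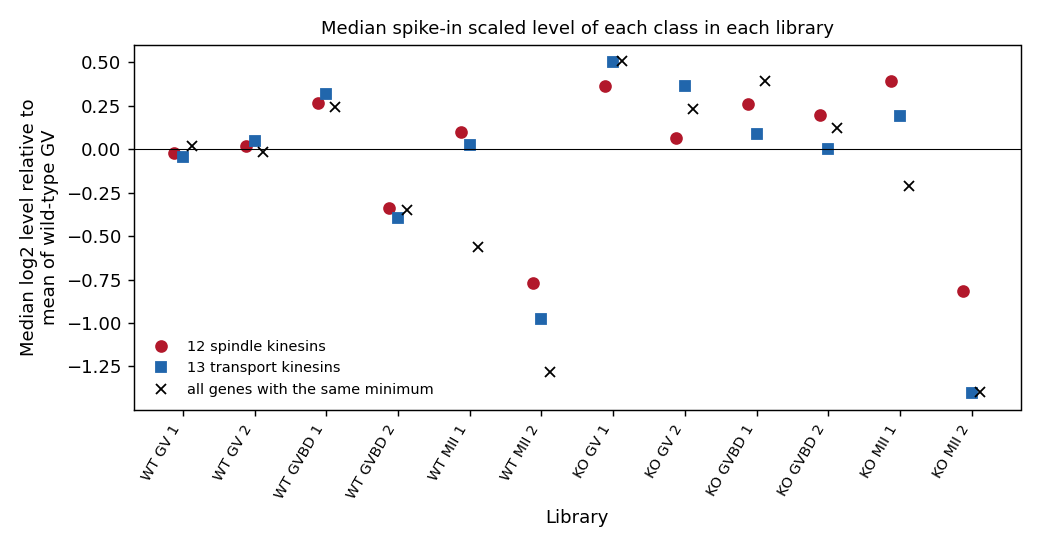
Median log2 level of the 12 spindle kinesins, the 13 transport kinesins and all 13273 genes averaging 50 counts or more, in each library, relative to the mean of wild-type GV. In the 4 MII libraries the spindle median lies 0.52 to 0.66 above the median of all genes, and the transport median from 0.00 below to 0.59 above it.

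Within each library, the distance of a class from all genes does not depend on the spike-in. Each gene was set relative to its WT GV mean, so the WT GV values mirror each other around 0 by construction. The spindle median exceeded that of all genes by 0.66 and 0.52 in WT MII and by 0.60 and 0.59 in KO MII, against -0.04 and 0.04 in WT GV and -0.14 and -0.17 in KO GV. The transport median exceeded it by 0.59 and 0.31 in WT MII and by 0.40 and -0.00 in KO MII, against -0.06 and 0.06 in WT GV and -0.00 and 0.13 in KO GV, so the KO values overlapped.

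By 4 h of culture no kinesin row was called. In WT, 0 of 40 rows passed from GV to GVBD by edgeR, where 0.0511% of all genes did, and DESeq2 called none. No row had an unadjusted p under 0.05, where 1223 of 19566 genes did. In KO, 0 of 39 passed, where 0.22% of all genes did, and DESeq2 called none. An unadjusted p under 0.05 was found in 4 rows, against 1459 of 19064 genes. These 4 were Kif5a (log2 -2.84, SE 0.81, adjusted p = 0.452), Kif26a (-1.81, SE 0.76), Kif1c (-1.18, SE 0.49) and Kif2c (-0.66, SE 0.27). Kif20b had 15461 and 12541.9 scaled counts in KO GV and 5993.6 and 11209.1 in KO GVBD. Kif13b had 4524.3 and 3897.4, and then 1470 and 3200.2. In both genes KO GVBD replicate 1 was the lowest of these 4 libraries, and both were called without KO GVBD replicate 2.

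Loss of Alkbh5 moved no kinesin row past the test at any stage. By edgeR 0 of 39 rows were called at GV, where 0.0977% of all genes were, 0 of 38 at GVBD, where 2.54% were, and 0 of 39 at MII, where 0.803% were. At an unadjusted p under 0.05 there were 4, 3 and 0 rows, against 3475 of 19452, 2901 of 19462 and 1286 of 17566 genes. DESeq2 called none of the rows at any of the 3 stages. With all stages in the model 0 of 40 rows were called, where 1.26% of all genes were. An unadjusted p under 0.05 was found in 5 rows (Kif28, Kif1bp, Kif20a, Kif17 and Kif5b), against 4146 of 22004 genes. The median gene lay 0.36 higher in KO at GV on the log2 scale, 0.23 at GVBD and 0.30 at MII, and 0.00, -0.04 and 0.00 with TMM scaling.

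At GV, where replicates were closest, the intervals were narrow for the abundant motors. Kif2c had 12420.5 and 10422.9 scaled counts in KO GV, a log2 difference from WT of 0.24 (95% interval -0.17 to 0.65). Kif20b differed by 0.23 (-0.20 to 0.65), Kif4 by 0.36 (-0.09 to 0.81) and Kif22 by 0.30 (-0.28 to 0.88). For these 4 motors a 2-fold difference lay outside the interval. Kif23 had 7477.4 and 6474.4 in KO GV, above both WT libraries (log2 0.50, SE 0.17, adjusted p = 0.216). Kif18a had 7049.6 and 5464 (log2 0.24, SE 0.23), and Kif11 differed by 0.28 (SE 0.32).

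At MII the same motors had intervals several log2 units wide. Kif2c had 10354.2 and 3963.9 scaled counts in KO MII (log2 0.17, 95% interval -1.27 to 1.61), Kif20b 14891.8 and 7856.9 (0.03, -1.35 to 1.41), Kif23 11677.3 and 5251.8 (0.38, -1.06 to 1.81), Kif4 7645.1 and 3224 (0.48, -1.01 to 1.97) and Kif22 4414.5 and 1535.7 (-0.71, -2.23 to 0.80). Each was higher in replicate 1 than in replicate 2. Kif18a had 7168.7 and 4895.8 (log2 -0.22, SE 0.74).

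Kif5c had 3157 and 2559.2 scaled counts in KO before culture, 1789 and 2256.1 after 4 h and 2738.2 and 1237 after 16 h. Kif3a had 1316.3 and 1224.7, then 1096.8 and 986, then 1503.2 and 613.9. Its log2 difference from WT at GV was 0.54 (SE 0.21, adjusted p = 0.262). Kif16b had 1409.2 and 919.8, then 1162.5 and 700.6, then 1073.9 and 308.7, and Kif5b had 1210.7 and 759.1, then 700.5 and 919.9, then 912.7 and 423.3. Kif13b in KO MII had 4204.3 and 1207.6. Kif17 had its widest gap to WT at GVBD, a log2 difference of 1.11 (SE 0.51, adjusted p = 0.312), with both KO libraries above both WT libraries.

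Kif28 lay higher in KO than in WT in every library of every stage. Its scaled counts were 160.2 and 69.1 in WT GV against 222.1 and 232.2 in KO GV, 142.1 and 62 against 300.9 and 218.1 at GVBD, and 130 and 92.5 against 197.2 and 229.9 at MII. Over all stages the log2 difference was 1.09 (SE 0.33, unadjusted p = 0.0053, adjusted p = 0.112), so it did not pass. DESeq2 called it, the single row that tool called in this comparison, among 1356 genes. With TMM scaling its log2 difference was 0.915 (SE 0.291, adjusted p = 0.0996), also not called. Of its exon bases 4.36% overlap Ahctf1 on the same strand. Kif1bp differed over all stages by 0.88 (SE 0.31, adjusted p = 0.153) and Kif20a by 0.56 (SE 0.23, adjusted p = 0.214). Of the exon bases of Kif20a, 29.3% overlap Cdc23 on the other strand.

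**Figure D5:**
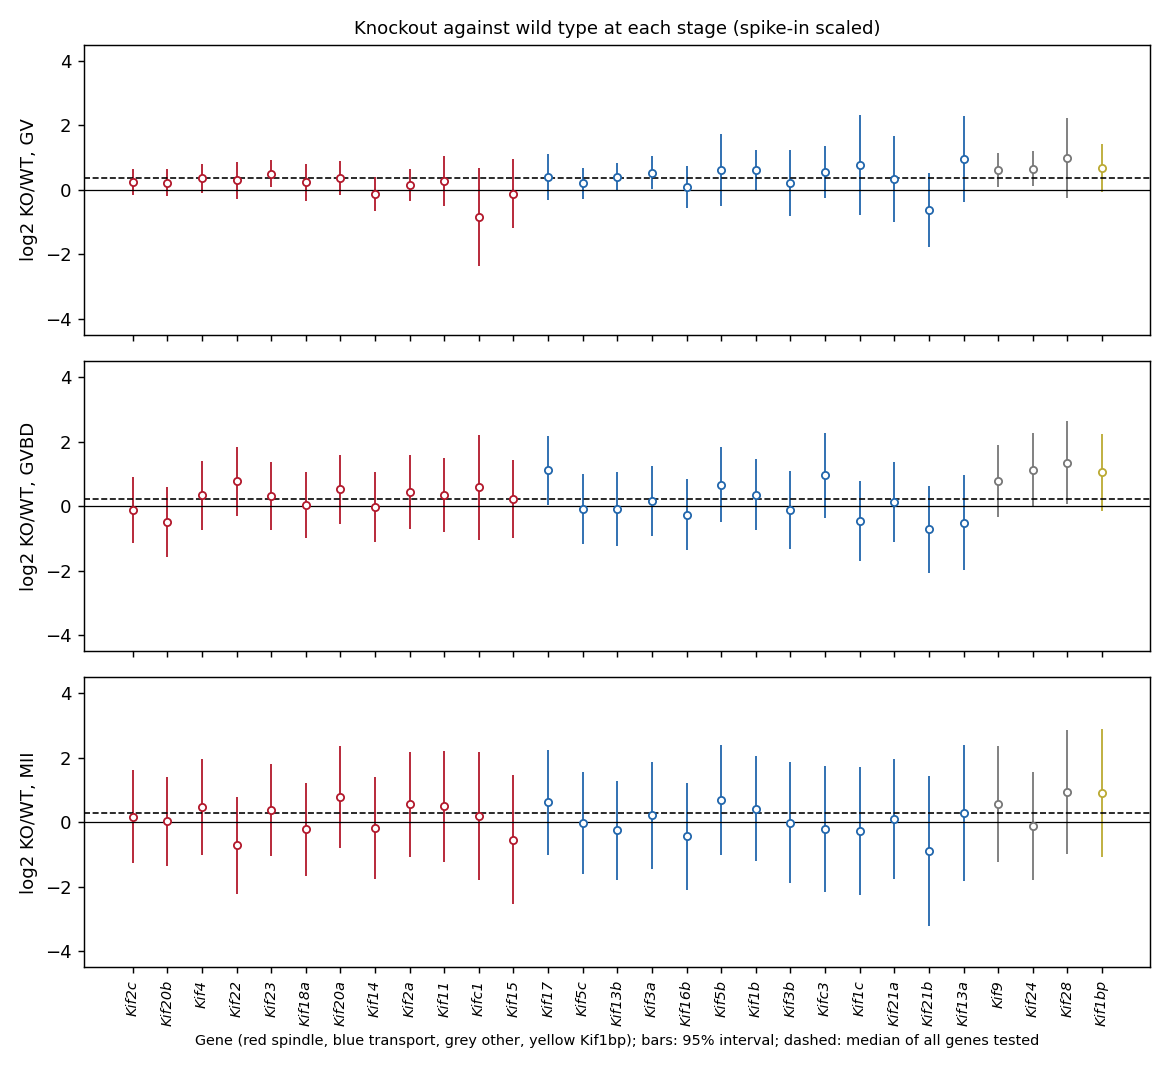
Log2 ratio of knockout to wild type for each kinesin averaging 50 counts or more and Kif1bp, at GV, GVBD and MII, with 95% intervals; the dashed line is the median of all genes tested. No gene is called, and intervals widen from GV to MII.

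Between the classes, the median KO to WT log2 difference at GV was 0.24 in the spindle and 0.40 in the transport class, a class difference of -0.16 (SD 0.12). At GVBD it was 0.32 against -0.09, a class difference of 0.41. Within single libraries the class difference was smaller, 0.171 and 0.194 in KO GVBD against -0.055 and 0.062 in WT GVBD (SD 0.08). The fitted value of 0.41 was 0.18 over all class members tested, and 0.12 without WT GVBD replicate 1, 0.29 without WT GVBD replicate 2. At MII it was 0.18 against -0.02, a class difference of 0.20 (SD 0.29), within the spread. No test was made of these class values.

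The proteins that load, adapt or guide these motors were read from a list of 23 matched genes. From GV to MII in WT, 3 of 20 tested were lower and 0 higher, where 30.5% of all genes tested were called lower: Kif1bp (above), Trak2, an adaptor that links kinesin to mitochondria (log2 -2.35, SE 0.58, adjusted p = 0.000406), and Rhot2, the mitochondrial receptor of that adaptor (-2.22, SE 0.62, adjusted p = 0.00187). No list gene was called in KO from GV to MII, where 3.28% of all genes were, or between genotypes, where the shares of all genes were 0.0977% (GV), 2.54% (GVBD) and 0.803% (MII). The list genes with the highest counts were Tpx2, Prc1, Cenpe, Mapre1 and Rhot1. Cenpe is itself a kinesin, the kinetochore motor of the kinesin-7 family, that the symbol rule leaves out. It had 13070.4 and 12542.2 scaled counts in WT GV and 15086.6 and 9895.4 in WT MII (log2 -0.04, SE 0.46). Prc1, the midzone bundler that recruits Kif4, changed by 0.25 (SE 0.45), Tpx2 by -0.55 (SE 0.45), the plus-end protein Mapre1 by 0.07 (SE 0.47) and Rhot1 by 0.10 (SE 0.48).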

How the data were processed

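The deposited table holds raw read counts per gene for 12 oocyte libraries and 92 ERCC spike-in sequences. Per the submitters' processing notes the authors used cutadapt 1.9, HISAT2 2.0.4 and StringTie 1.3.4d with mm10, and DESeq2 and edgeR. The study describes SMART-seq v4 libraries, whereas the labels describe a stranded preparation, so strand use in counting is open. Symbols came from GENCODE M21 and matched 52073 of 56691 IDs (91.9%).

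Counts were tested with edgeR 4.0.16 (quasi-likelihood, R 4.3.3) after filterByExpr on raw totals, with library sizes proportional to summed spike-in counts and Benjamini-Hochberg adjustment over all genes. SE is the log2 fold change divided by the square root of F. TPM used the union exon length of each gene. DESeq2 1.42.0, TMM, median-of-ratios scaling, other filters, all libraries in one model, blocking on replicate number and omitting single libraries were alternatives. The fit was tested on simulated data.

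Named genes were Alkbh5, every called member, every spindle or transport kinesin averaging 50 counts or more, the 5 highest of the other class and called or abundant list genes. Members and lists were chosen with earlier results of these data known. With 2 pools a group, p-values measure only the spread between pools, which may be technical.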

Additional observations from a re-analysis of the deposited data

Results flagged for a closer look

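Kif13a, a transport kinesin with few reads, moved in opposite directions between GV and GVBD in the 2 genotypes, which flagged it: both WT GVBD libraries lay above both WT GV libraries (log2 ratio of means 0.39) and both KO GVBD libraries below both KO GV libraries (log2 ratio -1.07). Its scaled counts were 54.6 and 70.5 and then 88.5 and 75.3 in WT, and 89.2 and 151.8 and then 64.1 and 50.7 in KO. This difference was not tested.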

How the results depend on the processing

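No called kinesin changed the sign of its log2 fold change under any alternative run; 38 such values kept their call and 44 lost it. With 7 kinesin rows called from GV to MII in WT, DESeq2 gave 4, the model of all 12 libraries 3 and the replicate block 4 (Kif9, Kif17, Kif21b and Kif1bp), and leaving out single libraries 0 to 5. With 0 called in KO, TMM and median-of-ratios scaling gave 2 each, no filter 1, a minimum of 10 counts in every library 4, DESeq2 2, the model of all 12 libraries 3, the replicate block 1 (Kif17), and leaving out single libraries 0 to 22. Between genotypes over all stages, DESeq2 and the replicate block each called 1 row (Kif28) in place of 0, and leaving out single libraries gave 0 to 1 (Kif1bp without KO MII replicate 2). Leaving out single libraries gave 0 to 1 between genotypes at GV (Kif5a without WT GV replicate 2) and at MII (Kif21b without KO MII replicate 1), and 0 to 2 from GV to GVBD in KO. The cause was not tested. The spindle minus transport median ranged, with single libraries left out, from -0.335 to -0.135 between genotypes at GV, 0.122 to 0.289 at GVBD, -0.076 to 0.343 at MII, and -0.117 to 0.209 (WT) and 0.233 to 0.855 (KO) from GV to MII. Over all class members tested it was 0.184 at GVBD. With all libraries kept, calls over all genes ranged across settings from 0 to 666 (19 as reported) between genotypes at GV, 12 to 953 (494) at GVBD, 0 to 346 (141) at MII and 274 to 1356 (278) over all stages. They ranged from 3839 to 5882 (5821) from GV to MII in WT, 222 to 3068 (616) in KO, 1 to 528 (10) and 0 to 516 (42) from GV to GVBD in WT and KO, and 0 to 346 (0) for the genotype difference. Same-numbered libraries share only a number: their deviations correlated at -0.223 (GV), 0.141 (GVBD) and -0.187 (MII) between genotypes and at 0.0211 (WT) and 0.0503 (KO) between GV and MII, across 13273 genes. A crossed pairing, added after seeing the data, called 0 kinesin rows at GV (218 genes) and 0 at MII (0 genes). At this depth, rows with a mean under 50 counts allow only large changes to be seen.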
